A study of Drosophila melanogaster with 34 samples.

Results

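The genes described here are 9 that serve DNA replication in Drosophila melanogaster: RnrL and RnrS, the large and small subunits of ribonucleotide reductase; PCNA, the sliding clamp; and Mcm2, Mcm3, Mcm5, Mcm6, Mcm7 and dpa, subunits of the MCM helicase, of which dpa is the fly's Mcm4. The genes were chosen with earlier results of these data known, so shares of all tested probe sets given beside them are a description. Every probe set that the platform annotation assigns to these symbols was taken, whatever its values. That gave 1 probe set each for 7 of the 9 genes, RnrL, PCNA, Mcm2, Mcm3, dpa, Mcm5 and Mcm6, of 18769 probe sets and 11982 named genes in all. The annotation used here assigns none to RnrS or Mcm7, which are not analysed here. All 7 probe sets passed the filter on low values, a log2 value of at least 4 on at least 5 arrays, which 9729 of the 18769 probe sets passed.

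Replication starts where the origin recognition complex, Cdc6 and Cdt1 (dup in flies) load the ring of MCM subunits onto DNA. The ring is switched on as a helicase by Cdc45 and the GINS complex. Primase and the replicative polymerases then copy the unwound strands, and PCNA, loaded by replication factor C, holds the polymerases and the enzymes that join Okazaki fragments on the DNA. Ribonucleotide reductase makes the deoxyribonucleotides by reducing ribonucleotides. In flies the genes for these proteins are among those activated by E2F as cells enter S phase. In a newly hatched larva many tissues grow by endoreplication, in which DNA is copied without division, and most neuroblasts and imaginal cells pause their cycle until the larva feeds.

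Expression was measured on Affymetrix arrays from 50 to 200 pooled first-instar larvae per RNA sample. The larvae came from 6 outbred populations of 1 base population, kept for over 300 generations under 3 selection regimes with 2 replicate populations each: ethanol (E1 and E2, all vials with 12% ethanol in the medium), variable (M1 and M2, a mixture of ethanol and standard vials) and control (R1 and R2, standard medium only). Flies of all populations were reared on standard medium before laying, and their eggs were soaked for 15 hours under 18% ethanol, which the medium in the dish dilutes to about 12%, or under distilled water. Each exposure has 17 arrays, 6 from the ethanol, 5 from the variable and 6 from the control regime, and these 34 are of 35 that the labels say were hybridised. The labels state 3 extraction blocks on different days. The number that ends each title was read as the block, here called days 1, 2 and 5. The labels do not say that this number is the day, so every comparison by day below rests on that reading. Whether arrays of the same population stem from separate cultures is not stated, and p-values for exposure therefore reflect only how far these samples spread, which may be technical.

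The day 5 arrays of the variable and ethanol populations went against their labels. On each population's profile over the 9729 probe sets, with exposure removed, day 1 correlated best with the same population's day 2 in all 6 populations, at 0.417 (M1) to 0.733 (E1). The day 5 arrays labelled E1 correlated at 0.212 with E1's profile of days 1 and 2 and at 0.576 with that of M1, and those labelled M1 at 0.0582 with M1 and 0.738 with E1. Those labelled E2 correlated at 0.37 with E2 and 0.55 with M2, and those labelled M2 at 0.391 with M2 and 0.654 with E2. Those labelled R1 and R2 correlated with their own profile at 0.546 and 0.693. The main results that separate ethanol from variable populations are therefore given as labelled, without day 5, and with the day 5 labels of M1 and E1, and of M2 and E2, interchanged; values by array, the intervals of single genes and the plots by array, population and exposure are as labelled. The exposure labels are not touched by this. The ethanol-exposed M1 array of day 2 also stood apart from the other arrays of its day in genes of mitosis: CycB, the mitotic cyclin B, was at 8.83 there and at most 5.63 on the other 10 arrays of day 2. Leaving this array out changed no count of the 7 genes called below.

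All 7 measured replication genes were lower after exposure to ethanol. Over the 6 populations, the fitted difference was largest for RnrL, whose mRNA level in ethanol-exposed larvae was 56.8% of that in water-exposed larvae, and smallest for Mcm3, at 75.0%. Each of the 7 passed limma's test at an adjusted p under 0.05, against 16% of all tested probe sets called lower and 15.2% called higher. The median difference of the 7 was -0.60 on the log2 scale, and the median over all tested probe sets was 2.5e-05. All 7 were lower in the fitted means of every population, as were 15.7% of tested probe sets; without day 5, RnrL in E2 was at 0.037. In RNA from whole larvae, fewer cells of a replicating type and less mRNA per cell cannot be told apart.

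RnrL, the reductase subunit that carries the catalytic and regulatory sites, ranged from 6.32 through a median of 7.52 to 8.15 on the 17 arrays of ethanol-exposed larvae, against 7.67, 8.35 and 8.85 on the 17 arrays of water-exposed larvae, as log2 expression. The ranges overlapped, through ethanol-exposed larvae of the ethanol and variable regimes. The difference was -0.82 ± 0.09 (limma standard error), a 1.76-fold decrease, with an adjusted p of 4.59e-08 from limma. On the same day and in the same population RnrL was lower after ethanol in 15 of 16 pairs of arrays, the exception being E2 on day 1, at 8.08 in ethanol and 7.81 in water.

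PCNA, which tethers polymerases to DNA, ranged from 8.19 through 8.93 to 9.40 in ethanol-exposed larvae, against 9.02, 9.55 and 9.86 in water-exposed larvae. The ranges overlapped between 9.02 and 9.40. The difference was -0.60 ± 0.07, with an adjusted p of 3.18e-07 from limma, and 15 of 16 same-day pairs were lower after ethanol. E2 on day 1 was again the exception, at 9.33 in ethanol and 9.02 in water.

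The 5 measured MCM subunits fell together. Mcm2 differed by -0.65 ± 0.11, Mcm5 by -0.60 ± 0.07, Mcm6 by -0.53 ± 0.08, dpa by -0.47 ± 0.07 and Mcm3 by -0.42 ± 0.09. Their adjusted p-values from limma ran from 6.23e-07 for Mcm5 to 0.000706 for Mcm3. Mcm5 and dpa were lower after ethanol in 16 of 16 same-day pairs, Mcm2 and Mcm6 in 15 and Mcm3 in 14. The Mcm2 exception was M1 on day 5, at 6.51 in ethanol and 6.05 in water, and the Mcm6 exception was E2 on day 1, where the values differed by 0.0086. Mcm3 has values near the filter's minimum of 4: it lay between 3.46 and 4.57 in ethanol-exposed larvae and between 4.05 and 4.95 in water-exposed larvae.

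**Figure D1:**
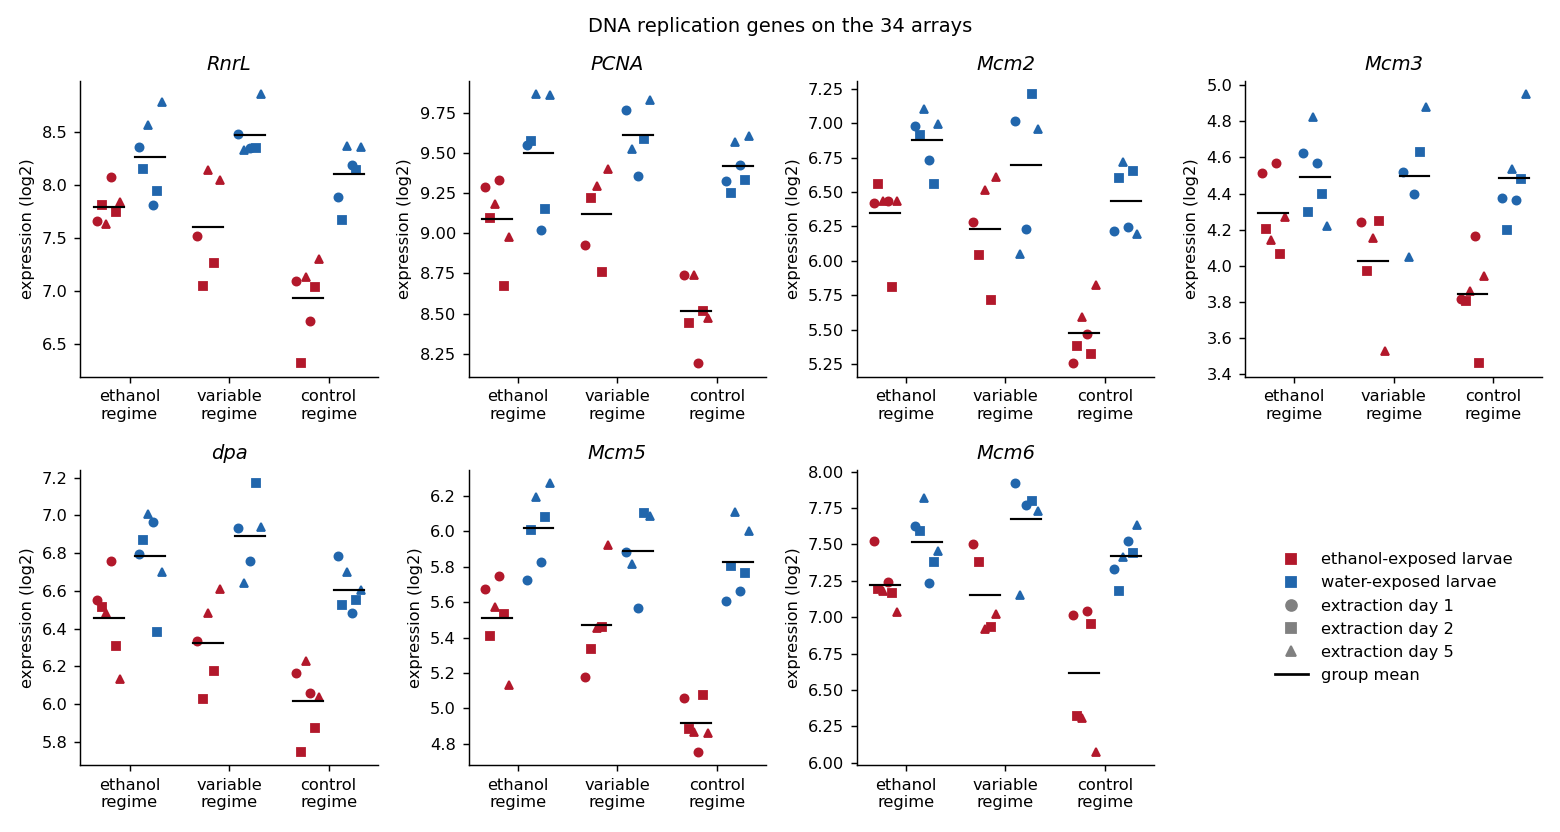
Log2 expression (y axis, a separate scale for each gene) of the 7 measured replication genes on all 34 arrays, by selection regime (x axis); red points are ethanol-exposed and blue points water-exposed larvae, the shape gives the extraction day and the black line the group mean. In the control regime every red point lies below every blue point for all 7 genes, while in the ethanol and variable regimes the colours overlap for most genes.

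The response to ethanol, the ethanol-minus-water difference on the log2 scale, was next taken within each regime. In the ethanol regime limma called 3 of the 7 genes lower, RnrL, PCNA and Mcm5, against 3.88% of tested probe sets, and the median was -0.41. In the variable regime it called 3, RnrL, PCNA and dpa, against 3.34%, and the median was -0.49. In the control regime it called all 7, against 10.1%, and the median was -0.90. Over all tested probe sets the medians were 0.0056, -0.0019 and -0.0084 in the ethanol, variable and control regimes.

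In the ethanol regime RnrL was between 7.64 and 8.08, with a median of 7.78, after ethanol, against 7.81 to 8.79, with a median of 8.25, in water. The difference was -0.47 ± 0.14 (adjusted p 0.0375 by limma). PCNA averaged 9.09 ± 0.24 after ethanol and 9.50 ± 0.35 in water (SD, n = 6 each), and Mcm5 5.51 ± 0.22 and 6.02 ± 0.21. Mcm2 averaged 6.35 ± 0.27 after ethanol and 6.88 ± 0.20 in water, and it missed the threshold (adjusted p 0.062 by limma). As labelled, its ethanol-exposed arrays all lay below the water-exposed ones, but only just, at up to 6.556 against 6.559 and above. This order held for none of the other 6 genes and for 0.761% of tested probe sets. The remaining differences, with adjusted p-values of 0.0711 or above by limma, were -0.33 ± 0.11 for dpa, -0.30 ± 0.14 for Mcm6 and -0.20 ± 0.15 for Mcm3.

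In the variable regime RnrL was at 7.52 and 7.05 on the M1 arrays of days 1 and 2 and 8.15 on that of day 5, and at 7.27 and 8.05 on the M2 arrays of days 2 and 5, after ethanol. In water it was at 8.48 and 8.33 on the M1 arrays of days 1 and 5, and at 8.35, 8.35 and 8.85 on the M2 arrays of days 1, 2 and 5. The 5 ethanol-exposed arrays thus lay below the 5 water-exposed ones, with both day 5 arrays the highest after ethanol, and the difference was -0.80 ± 0.16 (adjusted p 0.00213 by limma). PCNA averaged 9.12 ± 0.27 after ethanol and 9.61 ± 0.19 in water (SD, n = 5 each), and dpa 6.32 ± 0.23 and 6.89 ± 0.20. RnrL and dpa had no overlap between exposures here, as did 1.67% of tested probe sets. Mcm6, Mcm2, Mcm3 and Mcm5 differed by -0.49 ± 0.15, -0.44 ± 0.20, -0.41 ± 0.17 and -0.40 ± 0.14, with adjusted p-values of 0.0561 to 0.21 by limma.

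In the control regime the exposures were furthest apart. RnrL was between 6.32 and 7.30, with a median of 7.07, on the 6 ethanol-exposed control arrays, against 7.67 to 8.37, with a median of 8.17, on the 6 water-exposed ones, a difference of -1.17 ± 0.14, or 2.25-fold (adjusted p 1.72e-06 by limma). PCNA was between 8.19 and 8.74 after ethanol, against 9.25 to 9.60 in water, and differed by -0.90 ± 0.12. Mcm2 was between 5.26 and 5.83 after ethanol, against 6.19 to 6.72 in water, and differed by -0.96 ± 0.18. These ranges do not touch. For Mcm5 the 6 ethanol-exposed control arrays averaged 4.92 ± 0.12 and the 6 water-exposed ones 5.82 ± 0.19 (SD), and for Mcm6 6.62 ± 0.43 and 7.42 ± 0.16. The corresponding means were 6.02 ± 0.18 and 6.61 ± 0.12 for dpa, and 3.84 ± 0.23 and 4.48 ± 0.26 for Mcm3. All 7 genes had every ethanol-exposed control array below every water-exposed one, a pattern of 2.76% of tested probe sets.

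How the ethanol and variable regimes compare depended on the day 5 arrays. Without day 5, limma called 0 of the 7 lower in the ethanol regime, against 2.49% of tested probe sets, 4 in the variable regime (RnrL, PCNA, Mcm2 and Mcm6), against 2.45%, and 7 in the control regime, against 8.98%. The medians were -0.23, -0.69 and -0.77. With the labels interchanged it called 0, against 5.52%, 6 (all but Mcm3), against 7.4%, and 7, against 11.6%, with medians of -0.30, -0.71 and -0.90. RnrL responded by -0.24 ± 0.15 in the ethanol regime and -1.07 ± 0.19 in the variable regime without day 5, and by -0.33 ± 0.12 and -0.99 ± 0.14 with the labels interchanged. The control regime and the comparison over all populations kept 7 of 7 calls under both. Over all populations 15.1% of tested probe sets were called lower without day 5 and 18% with the labels interchanged, and the medians of the 7 were -0.55 and -0.62.

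**Figure D2:**
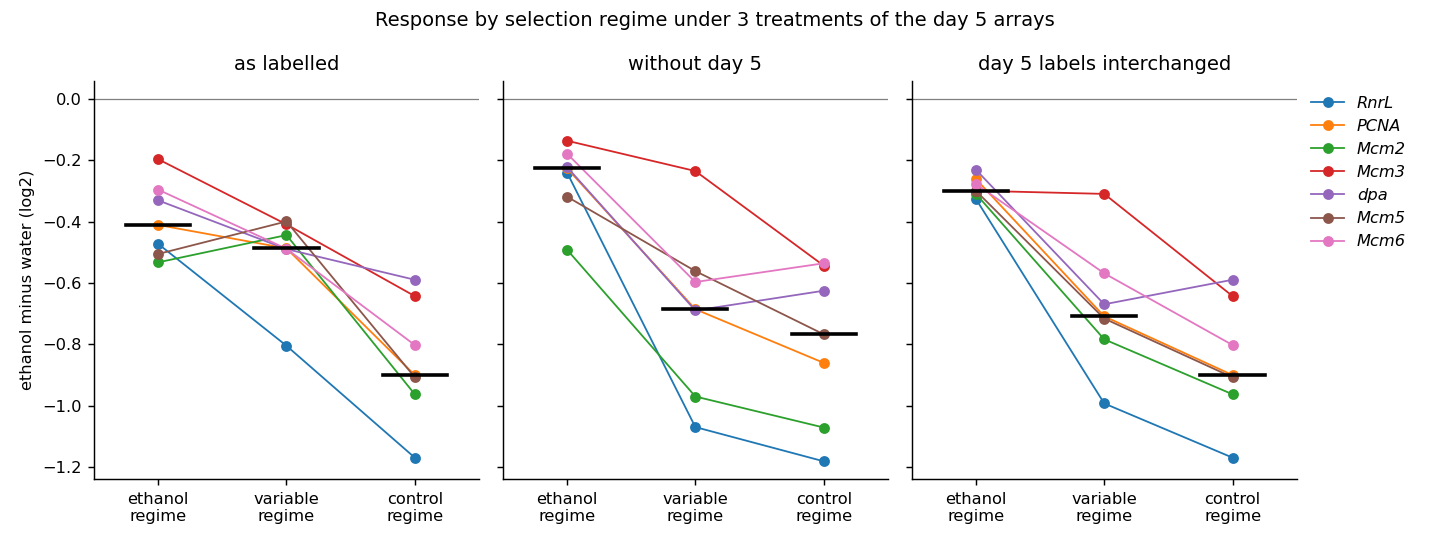
Ethanol-minus-water difference (y axis, log2) of each of the 7 genes in the ethanol, variable and control regimes (x axis), as labelled, without the day 5 arrays, and with the day 5 labels of variable and ethanol populations interchanged; points joined by a coloured line belong to 1 gene and black bars are medians of the 7. The ethanol and variable medians, -0.41 and -0.49 as labelled, are -0.23 and -0.69 without day 5 and -0.30 and -0.71 with the labels interchanged.

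Population by population, median responses as labelled were smallest in E2 and largest in R1 and R2. No gene of the 7 was called by limma in E1, E2 or M1, against 1.04%, 1.09% and 0.956% of tested probe sets, and the medians were -0.42, -0.29 and -0.44. RnrL alone was called in M2, against 0.915%, and the median there was -0.67. In R1 limma called 6 genes lower, all but Mcm3, against 3.72%, with a median of -0.76, and in R2 it called 7, against 4.84%, with a median of -0.84. RnrL followed the order of the medians, at -0.29 ± 0.20 in E2, -0.65 ± 0.20 in E1, -0.73 ± 0.23 in M1, -0.88 ± 0.23 in M2, -1.13 ± 0.20 in R1 and -1.21 ± 0.20 in R2. The 95% intervals of neighbours in that order overlap. The other 6 genes each departed from it in some population; the smallest Mcm2 response was in M1, at -0.22 ± 0.28, and the smallest Mcm5 response in M2, at -0.27 ± 0.20.

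The day 5 labels moved these counts and medians. With the labels interchanged, limma called RnrL, PCNA, dpa and Mcm5 in M1, against 2.24% of tested probe sets, and the same 4 genes in M2, against 2.26%. The medians were then -0.25 in E1, -0.26 in E2, -0.66 in M1 and -0.74 in M2, against -0.76 in R1 and -0.84 in R2. Without day 5, limma called RnrL in M1, against 0.75%, 4 genes in R1, against 2.85%, and 4 in R2, against 3.31%. The medians were -0.32 in E1, -0.14 in E2, -0.67 in M1 and -0.71 in M2, against -0.70 in R1 and -0.80 in R2. Under both alternatives the medians of E1 and E2 were thus the smallest, and those of M1 and M2 lay closer to those of R1 and R2 than as labelled.

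**Figure D3:**
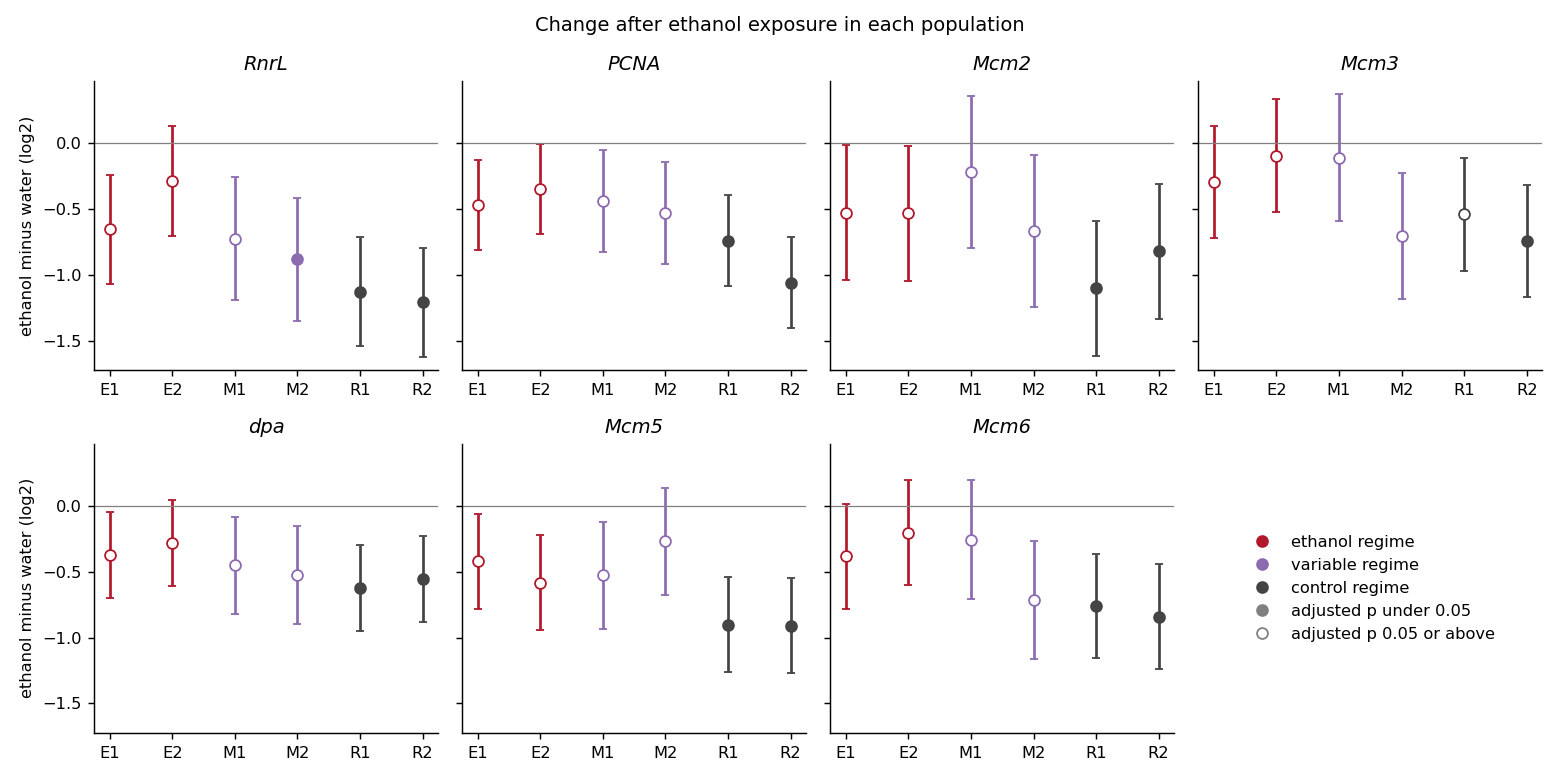
Ethanol-minus-water difference (y axis, log2, the same scale in all panels) of each gene in the populations E1, E2, M1, M2, R1 and R2 (x axis), as limma estimates with 95% confidence intervals and day 5 as labelled; filled points have an adjusted p under 0.05 and colours mark the regime. As labelled, R1 and R2 hold 13 of the 14 filled points and all 42 points lie below 0; with the day 5 labels interchanged, 4 genes each are also called in M1 and M2.

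Whether the response differs between regimes was tested with the 6 population responses as replicates, 2 per regime. As labelled, for 6 of the 7 genes the response of all 4 ethanol and variable populations was smaller than that of both control populations, a pattern of 8.11% of tested probe sets. Mcm3 lacks it, since its response of -0.71 in M2 lies between -0.54 in R1 and -0.74 in R2. Under the alternatives fewer genes had the pattern: 4 without day 5 (all but RnrL, dpa and Mcm6), against 5.28% of tested probe sets, and 4 with the labels interchanged (all but PCNA, Mcm3 and dpa), against 6.14%. The ethanol-minus-control difference in response was 0.70 for RnrL (95% interval 0.33 to 1.07), 0.51 for Mcm6 (0.09 to 0.92) and 0.49 for PCNA (0.17 to 0.81). For the other 4 genes the intervals included 0, and the median of the 7 was 0.45, against 0.017 over all tested probe sets. The variable-minus-control difference was 0.52 for Mcm2 (0.08 to 0.96), 0.51 for Mcm5 (0.10 to 0.92) and 0.41 for PCNA (0.09 to 0.73), with a median of 0.36. As both differences share the control populations, they are not independent of each other.

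None of these differences passed adjustment. In limma's test, 0 of the 7 genes and 0% of all tested probe sets were called for ethanol minus control, 0 and 0% for variable minus control, and 0 and 0% for ethanol minus variable. The adjusted p for RnrL was 0.79. At an unadjusted p under 0.05 there were 3 of the 7 and 394 of all tested probe sets for ethanol minus control, 3 and 529 for variable minus control, and 0 and 211 for ethanol minus variable. The ethanol-minus-variable median of the 7 was 0.16 as labelled, 0.46 without day 5 and 0.44 with the labels interchanged, with none called under any of them; for Mcm2 and Mcm5 it was -0.09 and -0.11 as labelled, 0.48 and 0.24 without day 5, and 0.47 and 0.42 with the labels interchanged. The corresponding ethanol-minus-control medians were 0.45, 0.45 and 0.61, and the variable-minus-control medians 0.36, 0.11 and 0.19.

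The level of the genes, averaged over both exposures, was compared between regimes in the same way. Medians of the 7 were 0.35 for ethanol minus control, 0.38 for variable minus control and 0.027 for ethanol minus variable, and again 0 of the 7 and 0% of tested probe sets were called in each of the 3 comparisons. At an unadjusted p under 0.05 there were 6 of the 7 and 920 of all tested probe sets, 6 and 722, and 0 and 124. The largest ethanol-minus-control difference in level was for Mcm2, at 0.66 (0.38 to 0.93), followed by RnrL at 0.51 (0.25 to 0.78). With arrays in place of populations as replicates, limma called 6 of the 7 higher in the ethanol than in the control regime, against 6.77%. For the variable regime limma called 6, against 4.09% of tested probe sets. Arrays of 1 population are not independent samples of a regime, so those calls leave out the spread between populations. They cannot decide whether the regimes differ. The ethanol-minus-variable median was 0.079 without day 5 and 0.0070 with the labels interchanged, and the medians against the control regime stayed between 0.34 and 0.37 under both.

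Split by exposure, the medians were larger in ethanol-exposed than in water-exposed larvae. Among ethanol-exposed larvae the ethanol-minus-control median was 0.59, with 7 of the 7 genes and 802 of all tested probe sets at an unadjusted p under 0.05, and the variable-minus-control median was 0.57, with 6 and 752. RnrL was higher by 0.86 (0.56 to 1.16) in the ethanol regime and by 0.67 (0.37 to 0.97) in the variable regime than in the control regime. Among water-exposed larvae the medians were 0.17, with 1 of the 7 and 561 of all, and 0.21, with 0 and 443. The gene at an unadjusted p under 0.05 in water was Mcm2, at 0.44 (0.05 to 0.83) for ethanol minus control. For RnrL in water the differences from the control regime were 0.17 (-0.19 to 0.52) and 0.31 (-0.05 to 0.66). Without day 5 the medians in ethanol were 0.62 for ethanol minus control and 0.42 for variable minus control, and in water 0.12 and 0.32. With the labels interchanged they were 0.66 and 0.46 in ethanol, and 0.099 and 0.29 in water. None was called after adjustment by limma; the difference between the exposures is the difference in response given above.

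**Figure D4:**
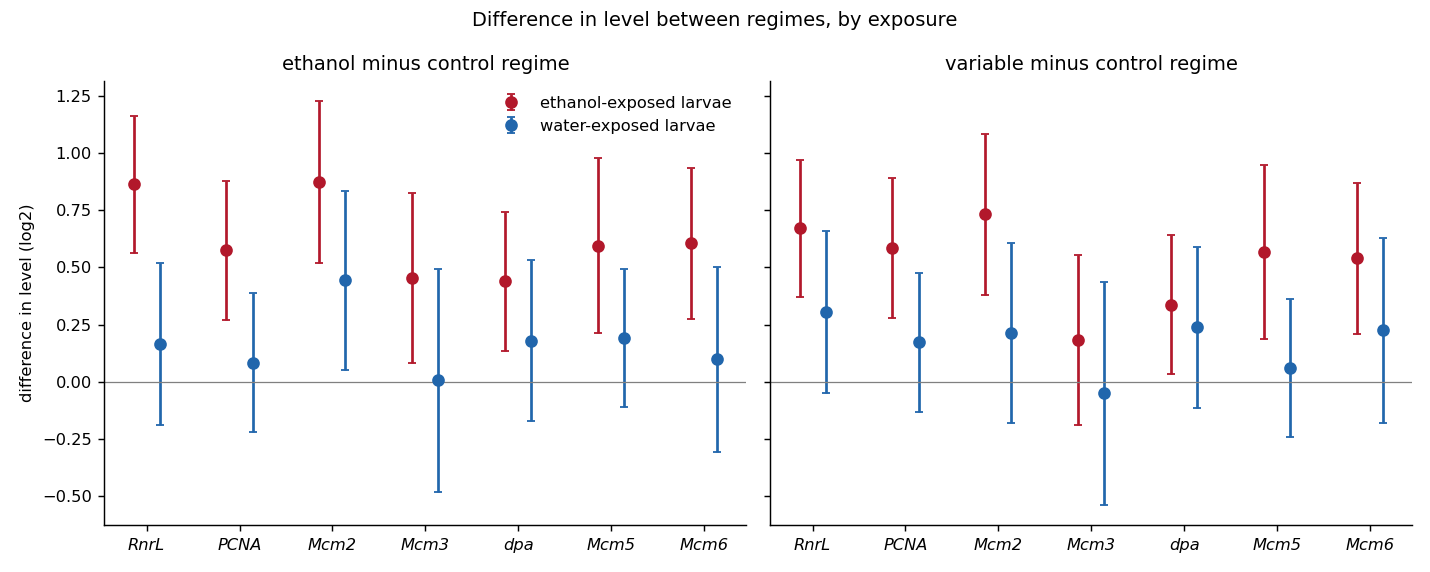
Difference in log2 level (y axis) between the ethanol and control regimes and between the variable and control regimes for each of the 7 genes (x axis), in ethanol-exposed (red) and water-exposed (blue) larvae; points are estimates from 2 populations per regime and bars are 95% confidence intervals, unadjusted. All red points lie above 0, from 0.18 to 0.87, while the blue points lie between -0.05 and 0.44 and only that of Mcm2 in the ethanol regime has an interval clear of 0.

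Over all populations the 7 genes had negative differences on each extraction day. Medians of the 7 were -0.46 on day 1, -0.68 on day 2 and -0.70 on day 5, with 1, 6 and 5 of them called lower by limma, against 3.09%, 12% and 5.96% of tested probe sets. The ethanol regime had medians of -0.067, -0.31 and -0.62. The variable regime had medians of -0.71, -0.87 and -0.33, of which that of day 1 rests on 1 pair of arrays, from M1. That of day 2 likewise rests on 1 pair, from M2. The control regime had medians of -0.73, -0.81 and -0.98. Between the ethanol and variable regimes, the ethanol regime thus had the larger median response on day 5 as labelled. With the day 5 labels interchanged, the day 5 medians of these regimes change places, and the variable regime has the larger one. On days 1 and 2 the variable regime had the larger median, each time from 1 pair in 1 population.

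The 7 genes varied together from array to array. With each day's mean removed, Pearson's r over the 34 arrays ran from 0.642 to 0.90 among the 21 pairs, with a median of 0.835. Each gene's r with the mean of the other 6 was 0.922 for RnrL, 0.919 for PCNA, 0.914 for Mcm5, 0.90 for dpa, 0.876 for Mcm2, 0.864 for Mcm6 and 0.722 for Mcm3. After the fitted exposure, population and day effects were also removed, r ran from -0.125 to 0.748, with a median of 0.386. The arrays share their exposure, their populations and their normalization, so these values are a description.

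The probe sets most like the mean of the 7, of those naming 1 other gene, were ranked by r over the 34 arrays with day means removed. Art1, an arginine methyltransferase, came first at 0.951. Next came vig2 and Nph, a nucleophosmin-type histone chaperone, at 0.92 each, CG33158 at 0.919, SerRS, the seryl-tRNA synthetase, at 0.913, and Sumo at 0.91. Alp8, an alkaline phosphatase, followed at 0.909, CG12288 at 0.899, Prim2, the large primase subunit, at 0.898 and Lcp65Aa, a larval cuticle protein, at 0.895. Their ethanol-minus-water differences over all populations ran from -0.22 for Sumo to -1.93 for Alp8.

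Other genes of DNA replication were read from lists by role, against the same 16% called lower and 15.2% called higher over all populations. Of 4 tested genes of the replicative polymerases and primase, 3 fell: Prim2 by 0.89, PolE2, a subunit of polymerase epsilon, by 0.53 and Prim1, the small primase subunit, by 0.49 on the log2 scale, while PolD2 had a difference of 0.12 ± 0.11. Of 9 genes of clamp loading and single-strand binding, 6 fell, among them cutlet by 0.93, RPA2 by 0.42, RfC4 by 0.34 and RfC3 by 0.33. Of 9 genes of Okazaki fragment maturation and nucleosome assembly, 7 fell, among them Fen1, the flap endonuclease, by 0.72, Ssrp by 0.49 and asf1, a histone chaperone, by 0.39. None of these 3 lists held a gene called higher, and their medians were -0.51, -0.28 and -0.29. Without the ethanol-exposed M1 array of day 2, limma called 5 genes of clamp loading and single-strand binding lower.

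Among steps around the helicase and among regulators most calls were lower, and helicase activation and S-phase regulators each had 1 gene called higher. Of 4 tested genes listed under origin licensing, dup fell by 0.30. Orc4 and Cdc6, at -0.19 ± 0.14 and -0.12 ± 0.08, were not called. Mcm10, listed there though it is not a licensing factor, fell by 0.44. Of 7 genes of helicase activation, Cdc45 fell by 0.53 and the probe set of Psf3, a GINS subunit, rose by 0.32, while the 5 others were not called. The Psf3 probe set averaged 11.2, against 3.97, 4.82 and 4.92 for the GINS subunits Psf1, Psf2 and Sld5. Whether it measures Psf3 alone was not tested. Of 6 genes of nucleotide supply, dnk, the deoxynucleoside kinase, fell by 0.37 and Ts, thymidylate synthase, by 0.25. Of 8 regulators of S phase, Cdk2 fell by 0.42, CycE by 0.30 and Cdk4 by 0.13, and E2f2, the repressive E2F of flies, rose by 0.31. The medians of the 4 lists were -0.24, -0.0058, -0.15 and -0.067. Limma called 3 genes of nucleotide supply lower without the ethanol-exposed M1 array of day 2. Without day 5 it called 1 gene of nucleotide supply lower, and 2 S-phase regulators lower and 0 higher.

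Genes of mitosis, which follows replication in dividing cells, gave no call in the direction of the replication genes over all populations. Of 10 tested, 0 were called lower by limma, against 16% of tested probe sets, and 2 higher, against 15.2%. These were CycB, higher by 0.75 ± 0.25, and Det, by 0.55 ± 0.11. With 10 genes, such counts do not set the list apart from those shares. The median was 0.088. As labelled, the list medians were 0.13 in the ethanol, 0.49 in the variable and -0.22 in the control regime. The variable median includes the ethanol-exposed M1 array of day 2, where CycB, CycB3, pim and borr were each highest of that day. Without that array the list median over all populations was 0.0029, and the regime medians without it are not given here. In the control regime borr alone was called lower, at -0.99 ± 0.32 (adjusted p 0.0301 by limma), against 10.1% of tested probe sets, and 0 genes higher. In the ethanol regime 1 gene was called higher and 0 lower, and in the variable regime 0 in either direction. Of all tested probe sets, 3.88% and 3.34% were called lower in these regimes. Of 20 listed genes of mitosis, 14 had a probe set and 10 passed the filter. Without the ethanol-exposed M1 array of day 2, CycB was higher by 0.59 ± 0.18, and without day 5 by 1.08 ± 0.23, with both genes still called.

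Markers of cell types that whole larvae hold were measured beside these genes, with the same background. Neuroblast markers had 0 of 5 called, and their mean level on single arrays ran from 7.03 to 7.60 in ethanol-exposed and from 7.12 to 7.63 in water-exposed larvae; dpn, ase and wor, which define neuroblasts, were below the filter. Muscle markers had 0 of 7 called (12.16 to 12.50 in ethanol and 12.12 to 12.50 in water). Neuron markers had 1 of 7 lower, brp (6.92 to 7.94 and 6.97 to 7.91), and germ line markers 1 of 6 higher, tud (5.44 to 6.09 and 5.33 to 5.96), with vas below the filter. Haemocyte markers had 5 of 10 lower (8.54 to 9.14 in ethanol and 9.01 to 9.40 in water). These were NimC1 by 0.77, Pxn by 0.48, Hml by 0.47, crq by 0.35 and vkg by 0.07. The other 5 were not called, with differences from -0.15 for srp to 0.02 for Col4a1, and the median of the 10 was -0.12. Midgut markers had 2 of 8 lower, Jon25Bi by 0.62 and betaTry by 0.33 (9.52 to 10.79 and 9.93 to 11.07), and embryonic patterning genes had 1 of 4 lower and 1 higher: hh fell by 1.05 and en rose by 0.33 (5.99 to 6.94 and 6.46 to 6.96). Without day 5 limma called 0 neuron and 0 germ line markers, and 3 midgut markers lower and 1 higher. The part of these cells in the decrease of the replication genes was not tested.

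**Figure D5:**
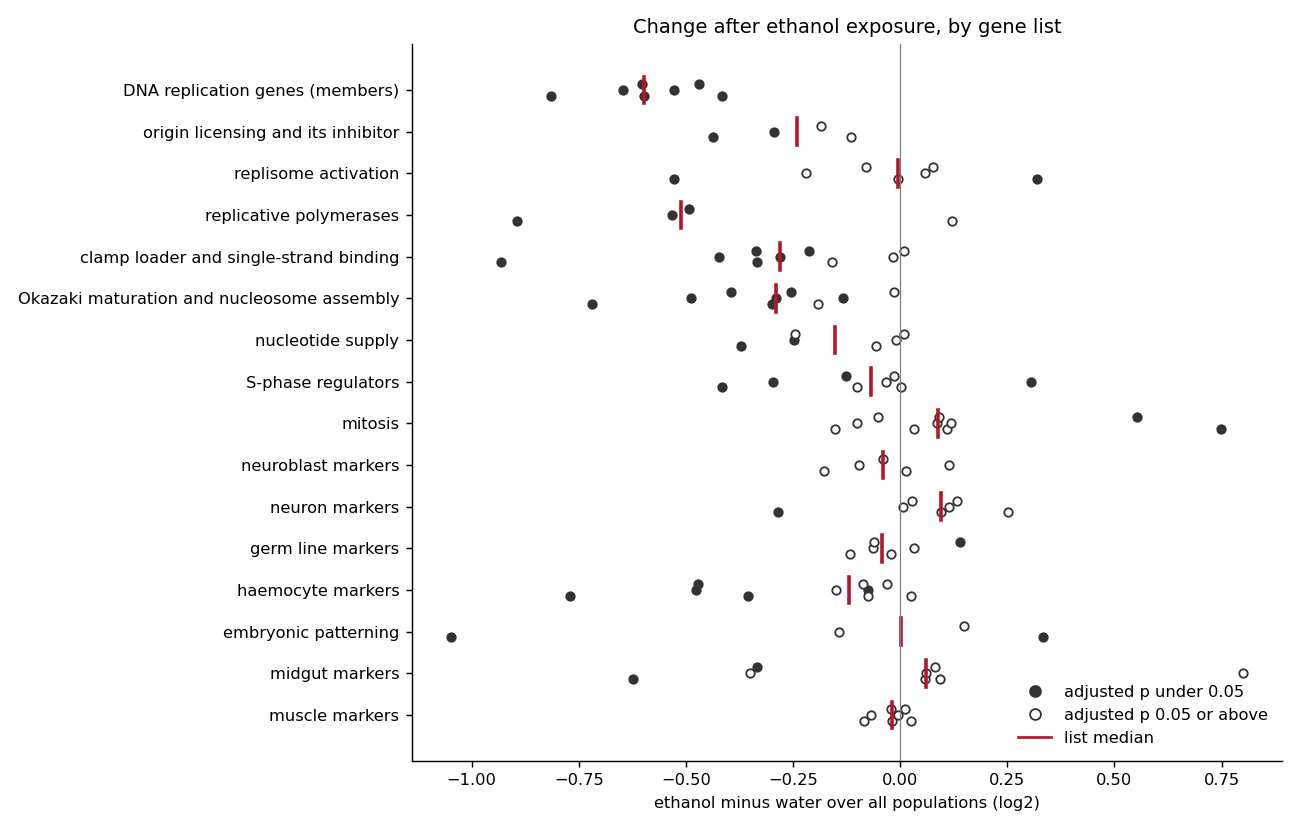
Ethanol-minus-water difference over all populations (x axis, log2) of every tested gene of each list (rows); filled points have an adjusted p under 0.05 by limma, open points do not, and red bars are list medians. All 7 measured replication genes lie left of 0, between -0.82 and -0.42. Filled points left of 0 are also found in every other list except mitosis and the neuroblast, germ line and muscle markers.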

How the data were processed

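The authors deposited log2 expression values, 1 per probe set and array. The submitters' processing notes name GCRMA and affy, without versions. GCRMA subtracts a background modelled from probe sequence and brings arrays to a common distribution, so low values such as those of Mcm3 depend on that model. Array medians lay between 3.89 and 4.02 and the arrays correlated at 0.984 to 0.998; the number of arrays limits the precision. Gene names come from the platform annotation, with symbols brought up to date from a RefSeq table. Of 18769 probe sets, 13647 list 1 gene and 402 list several. Of the 13647, 13544 took their symbol from the RefSeq table and the others kept that of the platform. Another gene with several probe sets is represented by that with the highest mean.

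With limma 3.58.1 in R 4.3.3, 1 mean for each of 12 population-by-exposure cells and a term for extraction day were fitted to all 34 arrays, with an intensity trend in eBayes. Tests were two-sided, adjusted by Benjamini-Hochberg over the 9729 tested probe sets at 0.05. Regimes were compared on 6 population values. The scripts were tested on simulated data. The day, as read from the titles, pairs the arrays, since the labels state extraction in blocks. Deviations from group means correlated at 0.394, 0.184 and 0.423 within days 1, 2 and 5. The members and lists were chosen with earlier results of these data known; all members are named, and of each other list up to 4 called genes with the smallest p-values and those called against the majority, plus others chosen after their values were seen. The alternatives covered filters, normalization, moderation, days, labels, populations and single arrays. Sequences and coordinates are not used here.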

Additional observations from a re-analysis of the deposited data

Results flagged for a closer look

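In 3 of 42 groups of a gene, regime and exposure, 1 array lay far from the others relative to the group's range; chance gives about 1 group in 20. RnrL in water-exposed larvae of the variable regime was highest on the M2 array of day 5, at 8.85, with the nearest array at 8.48. Mcm2 in ethanol-exposed larvae of the ethanol regime was lowest on the E2 array of day 2, at 5.81, with the nearest at 6.42. Mcm6 in water-exposed larvae of the variable regime was lowest on the M1 array of day 5, at 7.15, with the nearest at 7.73.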

How the results depend on the processing

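Over all populations 381 of 390 single-gene values kept direction and call and 9 lost the call, and all 7 genes stayed called without any 1 of the 34 arrays; day 1 alone called 1. The control regime kept 7 calls without any 1 array, with 0 on day 1 alone and 4 on day 5 alone. In the ethanol regime, with 3 called, there were 1 with no replicate block, 5 with arrays centred on their medians, 0 without day 2, day 5, E1 or E2, 0 with the day 5 labels interchanged, 0 on day 1 and 1 on day 2 alone, and 1 to 5 without single arrays (1 without the E1 water or E2 ethanol array of day 2 or any 1 E array of day 5, 5 without the E2 ethanol array of day 1 or the M2 water array of day 2). In the variable regime, with 3, there were 0 without day 1, day 2 or M2, 1 without M1, 6 with the labels interchanged, 0 on day 1 and day 5 alone, and 1 to 5 without single arrays (1 without the M1 water array of day 1 or the M2 water array of day 2, 5 without the M1 water array of day 5). By population, with 14 of 42, there were 3 without day 2, 9 without day 5 and 11 to 15 without single arrays. The share of all tested probe sets called lower moved too. Over all populations it was 16%, against 3.09%, 12% and 5.96% on days 1, 2 and 5 alone. In the ethanol regime it was 3.88%, 2.49% without day 5 and 5.52% with the labels interchanged. In the variable regime it was 3.34%, 2.45% and 7.4%. For most other settings it is not given here, and such counts alone do not set the 7 genes apart. Level comparisons with the control regime had 6 and 6 called with arrays as replicates, which leaves out the spread between populations. Directions turned for Mcm3 in level, variable minus control (-0.086 without day 2, -0.050 in water alone, -0.054 without the M2 ethanol array of day 2, and up to 0.18 without that of day 5); for the response, variable minus control, of dpa (-0.064 without day 5, -0.080 interchanged) and Mcm6 (-0.061 without day 5); for PCNA in the ethanol regime on day 1 alone (0.026) and Mcm2 in the variable regime on day 5 alone (0.055). They also turned for RnrL in E2 (0.037 without day 5) and for the ethanol-minus-variable response of Mcm2 and Mcm5 (0.48 and 0.24 without day 5, 0.47 and 0.42 interchanged). The cause was not tested. The replicate block by day is part of the fit, and its removal changed the count of calls in no other comparison by over 1.5 times. Counts of the other lists without day 5 and without the M1 ethanol array of day 2 were chosen after seeing the data. With 2 populations per regime, differences between regimes have wide intervals, and RnrS and Mcm7 are not analysed here.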

Other observations

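Some replication genes also differed between extraction days in level, which the comparisons above remove. RnrL averaged 7.41 ± 0.52, 7.21 ± 0.55 and 7.68 ± 0.41 on days 1, 2 and 5 in ethanol-exposed larvae, and 8.18 ± 0.27, 8.05 ± 0.26 and 8.54 ± 0.23 in water-exposed larvae (SD, n = 5 or 6). Mcm6 ran the other way after ethanol, at 7.27 ± 0.24, 6.99 ± 0.37 and 6.76 ± 0.45, and averaged 7.57 ± 0.26, 7.48 ± 0.23 and 7.54 ± 0.24 in water. The Mcm6 response was therefore widest on day 5 and that of RnrL changed little over the days. On day 5 the mitotic gene CycB had a median of 6.84, against 5.07 on day 1 and 5.23 on day 2. These day differences were not tested.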
